A study of Mus musculus with 46 samples.

Results

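The genes described here are 7 regulators of mitosis, Cdk1, Ccna2, Cdc25c, Aurka, Birc5, Kif20a and Cdc20, among the 7182 genes of an RNA table from mouse embryos with and without Rbbp5. They were chosen by name for their role in cell division, with earlier results of these data known, and all 7 were found in the table. In RefSeq coordinates of GRCm38.p6, Cdk1 lies at 10:69335146-69352912, Ccna2 at 3:36564865-36573038, Cdc25c at 18:34732993-34751564, Aurka at 2:172356190-172370886, Birc5 at 11:117849237-117855743, Kif20a at 18:34624624-34633277 and Cdc20 at 4:118432901-118437343. Rbbp5 belongs to the core of the SET1 and MLL complexes, which add methyl groups to lysine 4 of histone H3.

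The knockout (KO) embryos came from zygotes given Cas9 mRNA with guide RNA against Rbbp5 (wild-type zygotes) or Cre mRNA (Rbbp5 flox/flox zygotes), and the labels do not say which route made which library. The inner cell mass (ICM), the part of the blastocyst that forms the embryo proper, was taken by immunosurgery at embryonic day (E) 3.5 from single embryos grown in KSOM medium, with 7 KO and 7 wild-type (WT) libraries. Single cells at E4.5 gave 3 KO and 7 WT epiblast libraries and 2 KO and 1 WT primitive endoderm libraries. Epiblasts dissected by hand from single E5.5 embryos, which had developed in the uterus, gave 3 KO and 3 WT libraries. The labels do not say whether the WT embryos were injected, and RNA was amplified by SMART-seq2 in all 33 libraries.

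Entry into mitosis is driven by the kinase Cdk1 bound to a cyclin, and the phosphatase Cdc25c removes the phosphates that hold Cdk1 inactive. Cyclin A2, the product of Ccna2, activates cyclin-dependent kinases through S phase and G2. Aurora kinase A, from Aurka, matures the spindle poles, and survivin, from Birc5, anchors the chromosomal passenger complex at centromeres. Kif20a is a kinesin that carries this complex to the middle of the spindle for cytokinesis, and Cdc20 activates the anaphase-promoting complex, the ubiquitin ligase that starts chromosome separation and destroys cyclins. In cycling mammalian cells the transcripts of such genes accumulate toward G2 and mitosis. Many of their promoters carry a CHR element (core TTTGAA), bound by the DREAM and MuvB complexes, and CCAAT boxes, bound by NF-Y.

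RefSeq promoter windows of GRCm38.p6, each from 250 bases before to 50 bases after the start that the RefSeq promoter table uses, were matched for 4 of the 7 genes. These 4 are shown, and they include both genes that did not pass the test in KO ICM (Cdk1, Birc5) and 2 of the genes that fell there (Aurka, Cdc20). For Aurka the table's start lies 316 bases inside the annotated gene, and offsets are counted from the table's start. Capitals mark TTTGAA and CCAAT, or ATTGG where CCAAT lies on the opposite strand. The Cdk1 window is chr10:69352863-69353162 (minus strand), that of Aurka chr2:172370521-172370820 (minus), that of Cdc20 chr4:118437294-118437593 (minus) and that of Birc5 chr11:117848987-117849286 (plus), each printed 5′ to 3′ in the direction of the gene.
Cdk1: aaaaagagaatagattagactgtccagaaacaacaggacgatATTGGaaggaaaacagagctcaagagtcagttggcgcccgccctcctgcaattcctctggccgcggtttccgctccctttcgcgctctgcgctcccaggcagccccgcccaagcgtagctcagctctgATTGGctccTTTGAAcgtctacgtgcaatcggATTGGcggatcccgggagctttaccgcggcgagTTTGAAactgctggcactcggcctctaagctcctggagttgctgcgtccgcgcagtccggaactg
Aurka: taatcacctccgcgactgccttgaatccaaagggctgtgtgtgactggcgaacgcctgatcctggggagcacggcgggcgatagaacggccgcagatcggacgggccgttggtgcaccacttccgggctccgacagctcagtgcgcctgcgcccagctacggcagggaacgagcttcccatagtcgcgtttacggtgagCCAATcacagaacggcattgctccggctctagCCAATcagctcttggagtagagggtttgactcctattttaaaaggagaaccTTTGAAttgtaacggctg
Cdc20: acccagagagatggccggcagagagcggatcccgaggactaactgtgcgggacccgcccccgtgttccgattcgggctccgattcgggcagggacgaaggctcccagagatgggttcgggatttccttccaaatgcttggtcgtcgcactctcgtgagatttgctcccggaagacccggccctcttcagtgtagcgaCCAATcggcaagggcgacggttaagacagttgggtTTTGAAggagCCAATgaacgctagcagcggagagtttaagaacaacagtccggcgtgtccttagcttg
Birc5: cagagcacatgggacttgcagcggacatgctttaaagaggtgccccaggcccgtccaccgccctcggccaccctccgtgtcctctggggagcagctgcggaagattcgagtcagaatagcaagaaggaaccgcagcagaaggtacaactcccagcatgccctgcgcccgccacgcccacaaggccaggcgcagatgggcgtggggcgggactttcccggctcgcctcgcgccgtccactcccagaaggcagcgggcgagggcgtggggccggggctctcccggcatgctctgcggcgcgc

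The Cdk1 window held 2 TTTGAA, and 3 CCAAT on the opposite strand. Aurka and Cdc20 each held 1 TTTGAA and 2 CCAAT. The Birc5 window held neither motif on either strand, and no 2 motifs overlapped in any window. Bases beyond the windows were not searched, so this does not show that Birc5 lacks either motif. TTTGAA begins 18 bases before the start in Cdc20, 71 and 15 bases before it in Cdk1, and 33 bases after the table's start in Aurka. Among the 7204 RefSeq promoters of genes in the expression table, 11.6% held TTTGAA, 38.5% held CCAAT and 4.86% held both, beside 3 of these 4 windows. The 4 windows had 24 to 27 CpG dinucleotides, against a median of 20 for promoters of genes in the table. Their GC content was 57.7% to 68.7%, against a median of 60.7%, with Cdk1, Aurka and Cdc20 below that median and Birc5 above it. Both motifs thus occur in the windows of Cdk1, which did not pass the test in KO ICM, and of Aurka and Cdc20, which fell there. A match of letters is a description and not a binding site.

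Values are FPKM as deposited, fragments scaled by transcript length and by the mapped fragments of the library, and the depth behind them is unknown. Genes at 1 FPKM or more numbered 3628 to 5136 in KO ICM and 5110 to 5718 in WT ICM, and KO ICM libraries 1, 4 and 6 stood apart with 3628, 3642 and 3883. At E5.5 the counts were 5457 to 5895 in KO and 5738 to 5805 in WT. Values of Rbbp5 were not analysed here, and the KO and WT labels are taken as given. The libraries labelled KO E5.5 epiblast went against their label. Trophectoderm markers, genes of the outer layer that forms the placenta, summed to 2178 to 3897 FPKM in KO, against 102.0 to 152.4 FPKM in WT, and 13 of 14 tested were higher. Of 12 epiblast markers tested 8 were lower and 2 higher, and Pou5f1, the core pluripotency factor, had 4.57 to 19.9 FPKM in KO and 103.4 to 190.4 FPKM in WT. Cdx2, a defining trophectoderm factor, had 0 to 3.21 FPKM in the E5.5 KO libraries and was at 0 in the 3 WT E5.5 libraries. The KO libraries are called E5.5 KO libraries below. Cells of other types and marker changes within epiblast cells cannot be told apart here. The part of either in the results at E5.5 was not tested. In libraries of many cells, fewer cells of a type and less RNA per cell cannot be told apart.

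The E3.5 comparison asks which RNAs of the ICM depend on Rbbp5. In KO ICM, 5 of the 7 regulators fell, Kif20a, Aurka and Cdc20 by more than 2 on the log2 scale and Cdc25c and Ccna2 by less. The kinase Cdk1 and the passenger protein gene Birc5 did not pass the test. Over all 5443 genes tested, 24.9% were called lower, beside these 5 of 7. The 7 were chosen with earlier results of these data known. Their counts and medians are thus a description and not an unbiased comparison with all genes. Trophectoderm markers summed to 50.8 to 217.8 FPKM in KO ICM and 83.6 to 1246 FPKM in WT ICM, with overlap and with 4 of 10 tested lower. Primitive endoderm markers summed to 26.0 to 84.2 FPKM in KO ICM and 63.8 to 253.9 FPKM in WT ICM, with 1 of 10 tested lower and Foxa2 at 0 in both. Their part in the result was not tested.

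**Figure D1:**
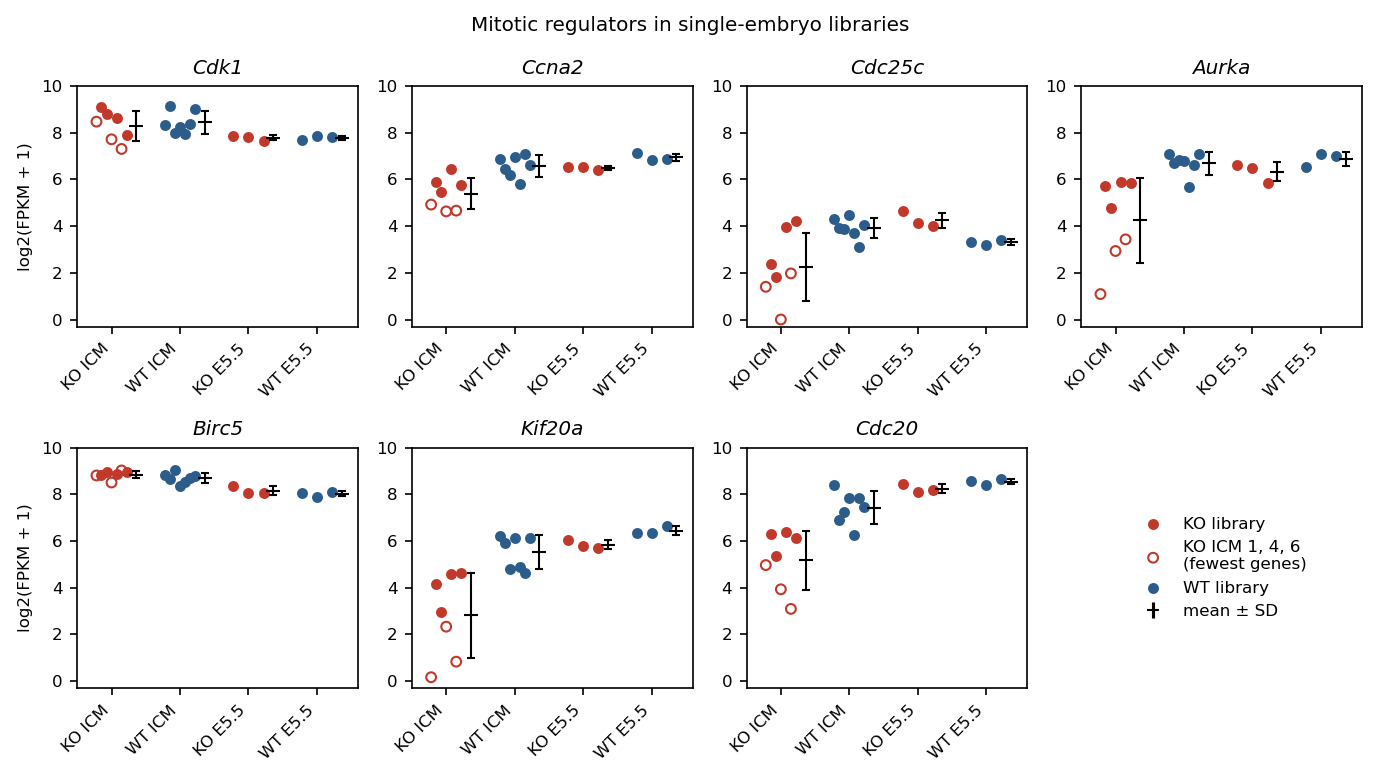
FPKM of the 7 mitotic regulators in each embryo library as log2(FPKM + 1), with KO left of WT at each stage, a point for each embryo and the group mean ± SD beside the points. Open circles are KO ICM libraries 1, 4 and 6, which hold the 3 lowest KO ICM values of Aurka, Cdc20, Ccna2 and Kif20a but not of Birc5, Cdk1 or Cdc25c.

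Among the genes of mitotic entry, Cdk1 had 157.1, 354.3 and 555.4 FPKM (lowest, median and highest of 7) in KO ICM and 242.4, 321.3 and 572.3 FPKM in WT ICM. The groups overlapped over most of their range. Its log2 difference, on the scale of log2(FPKM + 1), was -0.16 (SE 0.28, adjusted p = 0.680 with limma), and 4 of 7 KO libraries lay below the WT mean. The sign turned to 0.21 after median ratio scaling and to 0.18 without KO libraries 1, 4 and 6. Ccna2 had 23.8, 43.4 and 85.8 FPKM in KO ICM and 54.6, 97.2 and 135.8 FPKM in WT ICM. All 7 KO libraries lay below the WT mean, though the highest of them, library 5, exceeded 2 WT libraries. It fell by 1.17 on the log2 scale (SE 0.30, adjusted p = 0.0107).

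Cdc25c, the gene of the phosphatase that acts on Cdk1, had the lowest level of the 7. The KO ICM libraries 1 to 7 had 1.64, 4.19, 2.53, 0, 14.5, 2.93 and 17.4 FPKM, and the WT ICM libraries ran from 7.63 to 21.1 FPKM with a median of 14.3. Libraries 5 and 7 of the KO lay within the WT range and the other 5 below it. The log2 difference was -1.67 (SE 0.53, adjusted p = 0.0268), the weakest of the 5 calls.

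Among the genes of the spindle and the passenger complex, Aurka had 1.13, 26.5 and 58.2 FPKM in KO ICM and 50.2, 109.9 and 134.0 FPKM in WT ICM. Only WT library 5, the lowest, lay inside the KO range. The means were 30.2 ± 25.2 FPKM in KO and 106.1 ± 28.3 FPKM in WT (SD, n = 7 each), a log2 difference of -2.44 (SE 0.60, adjusted p = 0.00843). Birc5 had 361.4, 461.4 and 517.1 FPKM in KO ICM and 320.9, 413.9 and 525.1 FPKM in WT ICM. It was the steadiest of the 7, at 460.8 ± 50.5 FPKM in KO and 417.0 ± 64.0 FPKM in WT (SD, n = 7 each). Its log2 difference was 0.15 (SE 0.15, adjusted p = 0.442), with 1 of 7 KO libraries below the WT mean, and the sign turned to -0.08 after quantile normalization, while median ratio scaling gave 0.51 (adjusted p = 0.0433).

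Of the genes that act after the chromosomes align, Kif20a had 0.119, 6.80 and 23.8 FPKM in KO ICM and 23.6, 59.8 and 72.9 FPKM in WT ICM. The groups touched at a single point, KO library 7 against WT library 6. The means were 10.7 ± 10.2 FPKM in KO and 49.9 ± 22.2 FPKM in WT (SD, n = 7 each), a log2 difference of -2.72 (SE 0.63, adjusted p = 0.00613). That placed Kif20a at rank 15 of 5443 genes counted from the lowest difference, with Aurka at rank 35 and Cdc20 at rank 71. Cdc20 had 7.51, 40.0 and 82.9 FPKM in KO ICM and 76.3, 176.6 and 332.3 FPKM in WT ICM. KO libraries 2 and 5 alone exceeded the lowest WT library. The means were 46.0 ± 30.8 FPKM in KO and 187.5 ± 85.0 FPKM in WT (SD, n = 7 each), a log2 difference of -2.26 (SE 0.47, adjusted p = 0.00383).

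All 5443 genes had a median log2 difference of -0.65, and the 7 regulators one of -1.67. Relative to that shift Kif20a stood at -2.07, Aurka at -1.79, Cdc20 at -1.60, Cdc25c at -1.02 and Ccna2 at -0.52, while Cdk1 stood at 0.50 and Birc5 at 0.80. With 1540 genes called, 187 were higher and 1353 lower, a split that became 357 and 351 after quantile normalization and 308 and 695 after median ratio scaling. Aurka, Kif20a, Cdc20 and Ccna2 remained called under both scalings, with log2 differences after quantile normalization of -1.90, -1.99, -1.95 and -0.74.

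Beside these values stands the number of genes detected. Without KO libraries 1, 4 and 6, where 5.91% of genes were called lower, 3 regulators were lower: Kif20a (-1.45, adjusted p = 0.0386), Cdc20 (-1.38, adjusted p = 0.0313) and Aurka (-1.12, adjusted p = 0.0326). Ccna2 then had -0.68 (adjusted p = 0.117) and Cdc25c -0.83 (adjusted p = 0.235). In a fit that adjusted for how many genes each library detected, limma called 0 of the 7 (0 also at an unadjusted p under 0.05) and 0 genes in all (314 at an unadjusted p under 0.05), and the value of Cdc20 was -0.61 (adjusted p = 0.838). That number ran from 3628 to 5136 in KO ICM and from 5110 to 5718 in WT ICM, so this fit cannot separate it from genotype. Whether fewer detected genes follow from the knockout was not tested. The call of Cdc25c also ended without KO library 4 (-1.29, adjusted p = 0.0511), WT library 1 (-1.60, adjusted p = 0.0551) or WT library 4 (-1.58, adjusted p = 0.0573), and under a pseudocount of 0.1, either scaling and array weights. The count of all genes was 946 without WT library 1 and 987 without WT library 4.

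A ratio taken within 1 library does not depend on how libraries are scaled to each other. Birc5 served as the denominator, chosen after its values were seen. Its log2 difference of 0.15, beside a median of -0.65 over all genes, lowers the ratio of most genes in KO. Cdc20 had 0.0145 to 0.180 of the Birc5 level in KO ICM and 0.205 to 0.738 in WT ICM. Aurka had 0.00253 to 0.126 in KO and 0.135 to 0.343 in WT, and Kif20a 0.000267 to 0.0490 in KO and 0.0516 to 0.215 in WT. For these 3 of 6 regulators every KO library lay below every WT library, where 4.41% of 5442 genes did so. Ccna2 (0.0471 to 0.186 in KO and 0.135 to 0.389 in WT), Cdc25c (0 to 0.0355 in KO and 0.0184 to 0.0658 in WT) and Cdk1 (0.304 to 1.22 in KO and 0.477 to 1.42 in WT) overlapped. A ratio shows unequal change of 2 genes and does not show that Birc5 itself was constant.

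**Figure D2:**
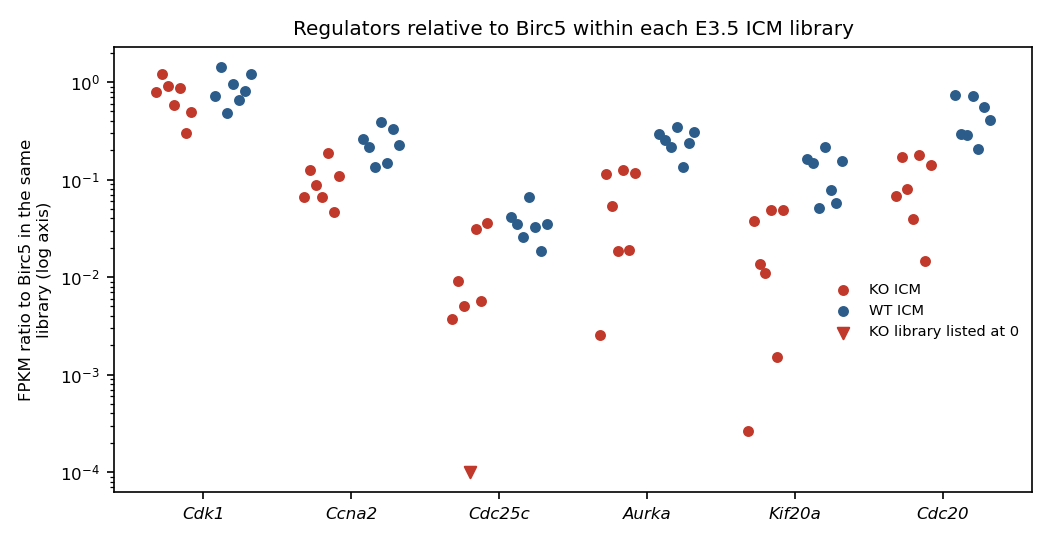
FPKM of 6 regulators divided by that of Birc5 in the same ICM library, on a log axis, KO left of WT, 1 point per embryo. The KO and WT points of Aurka, Cdc20 and Kif20a do not overlap, and a Cdc25c value of 0 in KO library 4 is drawn as a triangle at the foot of the axis.

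Other genes of mitosis were lower or higher in KO ICM at about the rates of all genes. Of 75 tested in 5 lists, 18 were lower and 3 higher, with a median log2 difference of -0.67 beside -0.65 for all genes. Of all 5443 genes 24.9% were lower and 187 were higher. Among kinesins and spindle genes 8 of 20 were lower. Kif22, a kinesin of chromosome arms, had 6.92 ± 4.98 FPKM in KO and 33.9 ± 14.0 FPKM in WT (SD, n = 7 each), a log2 difference of -2.31 (adjusted p = 0.00232). Tacc3, which binds spindle microtubules, fell by 1.77 (adjusted p = 0.00432), and Tubg1, the gamma-tubulin that seeds them, fell by 1.77 (adjusted p = 0.00726). The other 5, read after their values were seen, were Plk2, Anln, Kif11, Prc1 and Kif23, of which Plk2 is known mainly as a centriole and stress kinase.

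Of 20 mitotic kinases, cyclins and their partners, 5 were lower and 2 higher. Ccnf, a cyclin that serves a ubiquitin ligase, fell by 2.32 (adjusted p = 0.00451), and Plk1, the Polo kinase of mitosis, fell by 1.87 (adjusted p = 0.0133). Ccnb1, cyclin B1, the partner of Cdk1, had 240.3 FPKM in KO and 410.5 FPKM in WT on average and fell by 0.89 (adjusted p = 0.0221). Cks2, a small subunit that docks on cyclin-dependent kinases, rose to 2233 ± 734 FPKM in KO, against 1078 ± 210.4 FPKM in WT (SD, n = 7 each), a log2 difference of 1.004 (adjusted p = 0.00298). Its paralog Cks1b rose by 0.54 (adjusted p = 0.0166). Ccnb1 and Cks1b were named after their values were seen.

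In the chromosomal passenger, kinetochore and checkpoint list 3 of 15 were lower. Cdca8, borealin, which sits beside survivin in the passenger complex, fell by 0.73 (adjusted p = 0.0284), Zw10 fell by 1.28 (adjusted p = 0.0197) and Dsn1 by 1.79 (adjusted p = 0.0419). The next list held 9 tested genes of the anaphase-promoting complex, the target of Cdc20, and of its partners. In it Cdc26 rose by 0.97 (adjusted p = 0.00543) and Cdc23 fell by 1.69 (adjusted p = 0.0337), and Cdc27 had -1.24 (adjusted p = 0.0683). Of 11 condensin and cohesin genes, 1 was lower, Cdca5, sororin, which holds sister chromatids together (-1.79, adjusted p = 0.00879).

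**Figure D3:**
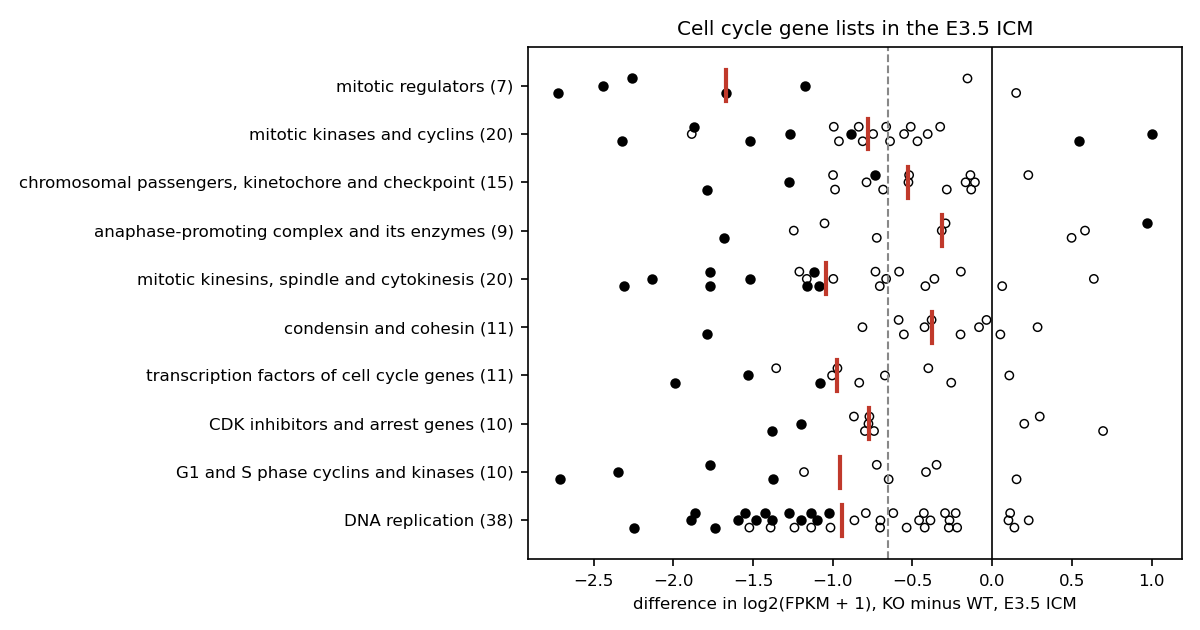
Log2 differences of tested genes in the cell cycle lists between KO and WT ICM, 1 row of points per list with the number of genes in parentheses, filled where the adjusted p is under 0.05. Short red lines are list medians, all below 0, from -1.67 for the 7 regulators to -0.32 for the anaphase-promoting complex and its partners. The dashed line is the median of all genes at -0.65.

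Of 11 transcription factors of cell cycle genes, 3 were lower. Mybl2, which joins MuvB at CHR promoters, had 7.04 ± 5.40 FPKM in KO and 26.4 ± 10.1 FPKM in WT (SD, n = 7 each), a log2 difference of -1.99 (adjusted p = 0.00601). The NF-Y subunits Nfya and Nfyc fell by 1.53 (adjusted p = 0.0138) and 1.08 (adjusted p = 0.0320). Of 10 inhibitors of cyclin-dependent kinases and arrest genes, 2 were lower, Ccng1 (-1.20, adjusted p = 0.00948) and Btg2 (-1.38, adjusted p = 0.0219), and Cdkn1a, which encodes p21, had -0.74 (adjusted p = 0.0597). Of 10 G1 and S phase genes 4 were lower, led by the licensing factor Cdc6 (-2.35, adjusted p = 0.0106), Ccne1 (-1.77, adjusted p = 0.0120) and Ccnd3 (-2.71, adjusted p = 0.0123). Of 38 replication genes 14 were lower, led by Pola2 (-2.25, adjusted p = 0.00219), Mcm6 (-1.89, adjusted p = 0.00326) and Rrm1 (-1.59, adjusted p = 0.00654).

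Without KO libraries 1, 4 and 6, 5 of 76 mitosis genes were lower, beside 5.91% of all genes lower, with a median of -0.33. Another 3 were higher, and the share of all genes higher in that fit is not given here. Kif22, Tacc3, Ccnf, Plk1, Cks2, Cks1b, Cdc26, Mybl2, Pola2 and Mcm6 stayed past the threshold, with Cks2 at 0.74 (adjusted p = 0.0317) and Mybl2 at -1.44 (adjusted p = 0.0331). Of the 38 replication genes 4 were then lower, and Cdc6 (-1.49, adjusted p = 0.0512), Ccne1 (-1.02, adjusted p = 0.132) and Ccnd3 (-1.29, adjusted p = 0.0803) no longer passed. The calls of Tubg1 (adjusted p = 0.0712), Plk2 (0.0525), Anln (0.0757), Kif11 (0.127), Prc1 (0.157), Kif23 (0.146), Ccnb1 (0.193), Cdca8 (0.254), Zw10 (0.113), Dsn1 (0.261), Cdc23 (0.159) and Cdca5 (0.0905) also ended. So did those of Nfya (0.127), Nfyc (0.322), Ccng1 (0.0804), Btg2 (0.216) and Rrm1 (0.0518).

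At E5.5 the comparison of the same genotypes asks which RNAs depend on Rbbp5 after implantation. Cdc25c rose in E5.5 KO libraries and Kif20a fell, while the other 5 regulators did not pass. Over all 5956 genes 15.6% were higher and 18.5% lower, so 1 of 7 each way is close to the background. Trophectoderm markers summed to at least 2178 FPKM in the same KO libraries, and their part in these values was not tested.

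Cdc25c had 23.8, 16.3 and 15.2 FPKM in the E5.5 KO libraries, against 9.06, 8.02 and 9.71 FPKM in WT epiblast. Every KO library lay above every WT library, whereas the KO was lower in the ICM. Its log2 difference was 0.95 (SE 0.24, adjusted p = 0.0128). Kif20a had 64.9, 53.9 and 50.5 FPKM in KO, against 79.2, 80.3 and 99.8 FPKM in WT. The groups did not overlap, with a log2 difference of -0.61 (SE 0.18, adjusted p = 0.0279). How many of all genes lay apart between these E5.5 groups, as some regulators did here and below, was not counted.

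Ccna2 had 92.4, 91.4 and 84.2 FPKM in KO and 138.9, 112.6 and 115.2 FPKM in WT. It lay lower in every KO library and missed the threshold (log2 difference -0.44, SE 0.16, adjusted p = 0.0590), which quantile normalization passed (adjusted p = 0.0351). Aurka had 98.0, 89.9 and 57.2 FPKM in KO and 91.4, 135.1 and 128.1 FPKM in WT, with overlap in the first libraries (log2 difference -0.54, SE 0.24, adjusted p = 0.102). Cdc20 had 347.5, 268.9 and 288.7 FPKM in KO and 376.0, 339.6 and 398.6 FPKM in WT (log2 difference -0.30, SE 0.15, adjusted p = 0.151). Its highest KO library exceeded the lowest WT library.

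Cdk1 was level between the groups, with 231.2, 226.5 and 201.1 FPKM in KO and 204.0, 230.0 and 222.3 FPKM in WT (log2 difference 0.00, SE 0.15, adjusted p = 0.985). Birc5 had 329.0, 260.9 and 267.8 FPKM in KO and 266.8, 236.0 and 272.9 FPKM in WT (log2 difference 0.14, SE 0.15, adjusted p = 0.516). Both groups overlapped for these 2 genes. The call of Kif20a ended without WT library 1 (adjusted p = 0.0645), WT library 2 (0.0695), WT library 3 (0.110), KO library 2 (0.0530) or KO library 3 (0.0598), and that of Cdc25c without WT library 2 (0.0595). Both ended when the 4 embryo groups shared 1 estimate of spread (adjusted p = 0.505 for Cdc25c and 0.770 for Kif20a), and the count of 2032 genes was 1205 without WT library 1 and 1293 without WT library 2.

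**Figure D4:**
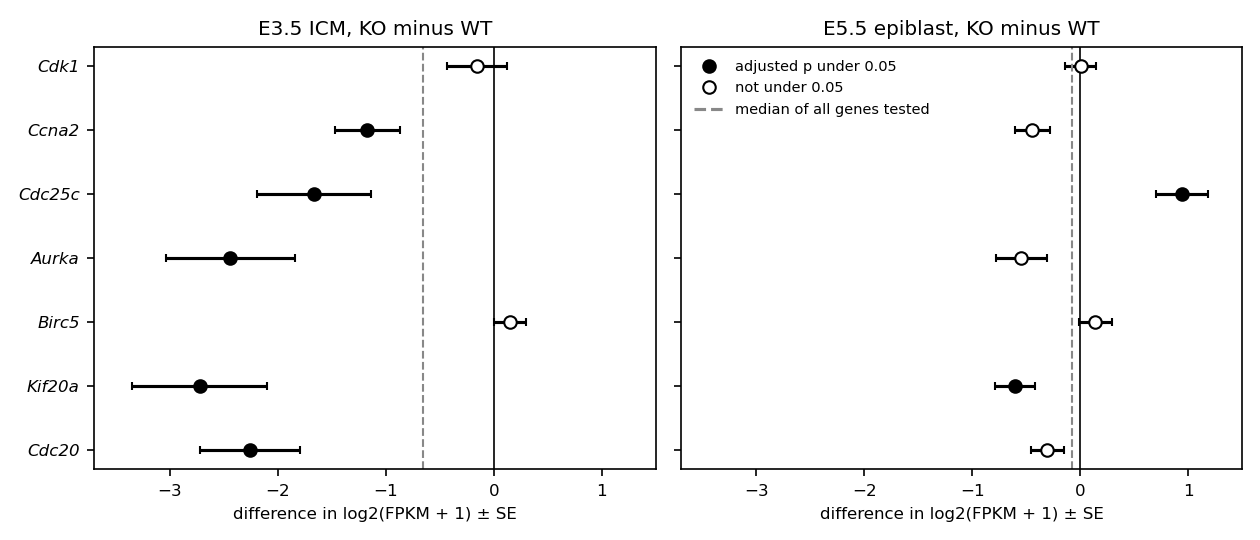
Log2 differences (KO minus WT) of the 7 regulators with standard errors at E3.5 and E5.5, filled where the adjusted p is under 0.05, with the median of all genes as a dashed line. Kif20a, Aurka and Cdc20 lie below -2 at E3.5 and between -0.61 and -0.30 at E5.5, and Cdc25c lies on opposite sides of 0.

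Among other mitosis genes at E5.5, 7 of 79 were higher and 9 lower, beside 15.6% and 18.5% of all genes, with a median log2 difference of 0.04 beside -0.07 for all genes. Genes at E5.5 named here beyond those of the ICM were read after their values were seen. Pbk, a mitotic kinase, rose to 109.0 FPKM on average in KO, against 35.1 FPKM in WT (log2 difference 1.55, adjusted p = 0.00168), and Rad21, a cohesin subunit, rose by 1.60 (adjusted p = 0.000193). Cdc26 fell by 1.23 (adjusted p = 0.000674) and Cdca5 by 0.86 (adjusted p = 0.00628), and Ube2c, which feeds ubiquitin to the complex that Cdc20 activates, fell by 0.58 (adjusted p = 0.0167). Mybl2 rose by 0.95 (adjusted p = 0.00983) together with Lin54, a MuvB subunit that binds the CHR (1.24, adjusted p = 0.00628).

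Arrest genes and genes of earlier cell cycle phases were also measured, and their counts stand beside the same 15.6% of all genes higher and 18.5% lower. Of 9 arrest genes 5 were higher, led by Sfn (2.87, adjusted p = 1.14e-05), Gadd45g (2.04, adjusted p = 0.00234) and Gadd45b (1.85, adjusted p = 0.00488). Of 12 G1 and S phase genes 5 were lower, with the G1 kinase Cdk4 at 382.3 FPKM on average in KO and 1165 FPKM in WT (log2 difference -1.61, adjusted p = 0.000105). Of 38 replication genes 9 were lower and 1 higher, among them Mcm2 (-1.41, adjusted p = 0.000275).

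Whether the KO effect differed between the stages was tested as an interaction over the 20 embryo libraries. The stages also differ in growth (KSOM or uterus) and isolation (immunosurgery or by hand), which cannot be told apart from stage. For Cdc25c the effect at E5.5 minus that at E3.5 was 2.62 (SE 0.86, adjusted p = 0.0460), the only one of the 7 to pass, where 10.6% of 5917 genes were called higher. Cdc20 had 1.95 (SE 0.77, adjusted p = 0.0918), Kif20a 2.12 (SE 1.03, adjusted p = 0.174) and Aurka 1.90 (adjusted p = 0.213), so a larger fall of these genes in the ICM than at E5.5 did not pass the test. Cdc20 passed without KO ICM library 5 (2.16, adjusted p = 0.0480), and with array weights Cdc20 (1.55, adjusted p = 0.0154) and Kif20a (1.57, adjusted p = 0.0468) both passed. Ccna2 had 0.73 (adjusted p = 0.327), Cdk1 0.16 (adjusted p = 0.843) and Birc5 -0.01 (adjusted p = 0.981), beside a median of 0.56 over all genes. The call of Cdc25c was narrow. It ended without KO ICM libraries 1, 4 and 6 (1.77, adjusted p = 0.0634), with no filter on low values (0.0502) and after either scaling. It also ended without any of the 6 E5.5 libraries (adjusted p = 0.0729 to 0.126) and without KO ICM library 1, 3 or 6 or WT ICM library 1, 2, 3, 4, 5 or 7 (0.0517 to 0.0688). All genes called numbered 827, with 627 higher and 200 lower, a split of 407 and 398 after quantile normalization and of 398 and 250 after median ratio scaling, and 458 genes were called without KO E5.5 library 1, 489 without WT E5.5 library 1 and 496 without WT E5.5 library 2.

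Between the WT stages, Cdc20 and Kif20a were higher in E5.5 epiblast than in ICM, and Cdk1 and Birc5 were lower. The ICMs came from embryos in KSOM by immunosurgery and the E5.5 epiblasts from the uterus by hand. Stage, culture and isolation thus cannot be told apart. Cdc20 averaged 371.4 ± 29.8 FPKM at E5.5 (SD, n = 3) and 187.5 ± 85.0 FPKM at E3.5 (SD, n = 7), a log2 difference of 1.12 (SE 0.35, adjusted p = 0.0142). Kif20a averaged 86.4 ± 11.6 FPKM at E5.5 and 49.9 ± 22.2 FPKM at E3.5, a log2 difference of 0.91 (SE 0.37, adjusted p = 0.0468). For both genes every E5.5 library lay above every ICM library. How many of all genes lay apart in this way was not counted.

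Birc5 averaged 258.6 ± 19.7 FPKM at E5.5 and 417.0 ± 64.0 FPKM at E3.5 (SD, n = 3 and 7), a log2 difference of -0.68 (SE 0.16, adjusted p = 0.00268). Cdk1 averaged 218.8 ± 13.3 FPKM at E5.5 and 364.0 ± 130.7 FPKM at E3.5, a log2 difference of -0.66 (SE 0.25, adjusted p = 0.0395). Both lay lower in every E5.5 library, and how many of all genes did so was not counted. Ccna2 (0.37, adjusted p = 0.240), Aurka (0.19, adjusted p = 0.565) and Cdc25c (-0.61, adjusted p = 0.0892) did not pass. Of 6022 genes 37.3% were higher and 18.9% lower, beside 2 of 7 each way, and the median of all genes was 0.43, so that Cdc20 stood at 0.69, Kif20a at 0.49, Cdk1 at -1.09 and Birc5 at -1.10 relative to it. Calls numbered 2247 higher and 1141 lower, a split of 1655 and 1498 after quantile normalization and of 1710 and 1391 after median ratio scaling.

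Some of these calls rest on single libraries. That of Kif20a ended without WT ICM library 3, 5 or 6 or any WT E5.5 library (adjusted p = 0.0658 to 0.153), after quantile normalization (0.0727) and after median ratio scaling (0.143). That of Cdk1 ended without WT ICM library 2 or 7 or any WT E5.5 library (adjusted p = 0.0517 to 0.123) and after quantile normalization (0.0802), and that of Cdc20 without WT E5.5 library 3 (0.0553). Cdc25c passed as lower without WT ICM library 6 (-0.74, adjusted p = 0.0194), after quantile normalization (-1.04, adjusted p = 0.00398), after median ratio scaling (-0.89, adjusted p = 0.0135) and with array weights (-0.73, adjusted p = 0.00571).

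Between KO libraries of the 2 stages, which are shared with the KO comparisons above, 4 regulators were higher at E5.5 and 1 was lower. Here too stage cannot be told apart from culture and isolation. Of 5604 genes 39.8% were higher and 8.67% lower, with a median of 1.08. Cdc20 averaged 301.7 ± 40.9 FPKM at E5.5 (SD, n = 3) and 46.0 ± 30.8 FPKM at E3.5 (SD, n = 7), a log2 difference of 3.07 (SE 0.63, adjusted p = 0.00152), and Kif20a had 3.03 (SE 0.89, adjusted p = 0.0131). For these 2 genes every E5.5 KO library lay above every KO ICM library. Cdc25c had 2.01 (SE 0.78, adjusted p = 0.0458) and Ccna2 1.10 (SE 0.40, adjusted p = 0.0364), both with overlap, and Aurka 2.09 (SE 0.89, adjusted p = 0.0657). Birc5 fell by 0.69 (SE 0.20, adjusted p = 0.0107) with no overlap, and Cdk1 had -0.50 (adjusted p = 0.243). The number of all genes without overlap between these KO groups was not counted.

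Relative to the median of all genes in these KO libraries, Cdc20 stood at 1.99, Kif20a at 1.95, Aurka at 1.01, Cdc25c at 0.93, Ccna2 at 0.02, Cdk1 at -1.58 and Birc5 at -1.77. Calls numbered 2231 higher and 486 lower, a split of 1009 and 922 after quantile normalization and of 1386 and 679 after median ratio scaling. The call of Cdc25c ended in each of 8 fits without 1 library (KO ICM 1, 2, 3, 4 or 6, or any E5.5 KO library, adjusted p = 0.0540 to 0.148), and that of Ccna2 in 6 (KO ICM 1, 4 or 6, or any E5.5 KO library, 0.0502 to 0.107). Kif20a lost its call without E5.5 KO library 1 (0.0512), and Birc5 without E5.5 KO library 2 (0.0574) or 3 (0.0573). After quantile normalization Ccna2 (0.48, adjusted p = 0.222), Cdc25c (0.95, adjusted p = 0.277) and Birc5 (-0.37, adjusted p = 0.116) did not pass, and after median ratio scaling Ccna2 (0.50, adjusted p = 0.217) and Cdc25c (1.53, adjusted p = 0.120) did not, while Cdk1 fell by 1.11 (adjusted p = 0.0157). Aurka passed without KO ICM library 2 (0.0472), 5 (0.0418) or 7 (0.0431).

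In the single cells of E4.5 the labels name no embryo, so each group counts as 1 sample and nothing was tested. KO epiblast cell 1 had 6 of the 7 regulators under 1 FPKM, with Cdk1 at 80.8 FPKM. Cell 2 had 2 under 1 FPKM, Cdk1 (0.331) and Kif20a (0.0571), and cell 3 had 1, Cdc25c, listed at 0. Among 7 WT epiblast cells, cell 3 had 4 of the 7 under 1 FPKM and each other cell at most 1. Of all 7182 genes, 3026, 3628 and 3056 were at 1 FPKM or more in KO cells 1, 2 and 3. In WT cell 3 the number was 3878, so values under 1 FPKM were common over all genes.

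Cdk1 was at 80.8, 0.331 and 27.9 FPKM in KO epiblast cells 1, 2 and 3 and at 145.7, 197.1 and 283.4 FPKM (lowest, median and highest) in WT epiblast cells, so the groups did not overlap. Birc5 was at 0.232, 12.5 and 239.4 FPKM in KO and at 149.3, 183.5 and 333.6 FPKM in WT, with cell 3 of the KO inside the WT range. Aurka was at 0.206, 89.9 and 172.9 FPKM in KO and at 0, 37.4 and 172.9 FPKM in WT. The cells of a group count as 1 sample, and how many of all genes lay apart in the same way was not counted. Cdk1 and Birc5 did not pass the test in KO ICM, and the difference between the stages was not tested. The KO epiblast cells had 3026 to 3628 genes at 1 FPKM or more and the WT epiblast cells 3878 to 4682, and the part of this in these values was not tested.

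Ccna2 was at 2.39e-152, 39.7 and 93.6 FPKM in KO and at 18.4, 59.2 and 120.4 FPKM in WT. Cdc20 was at 0.108, 35.9 and 47.7 FPKM in KO and at 0, 43.9 and 93.8 FPKM in WT. Kif20a was at 1.15e-245, 0.0571 and 74.2 FPKM in KO and at 0.0706, 26.6 and 31.9 FPKM in WT, so KO cell 3 lay above every WT cell. Cdc25c was listed at 0 in 2 of 3 KO cells and in 3 of 7 WT cells.

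**Figure D5:**
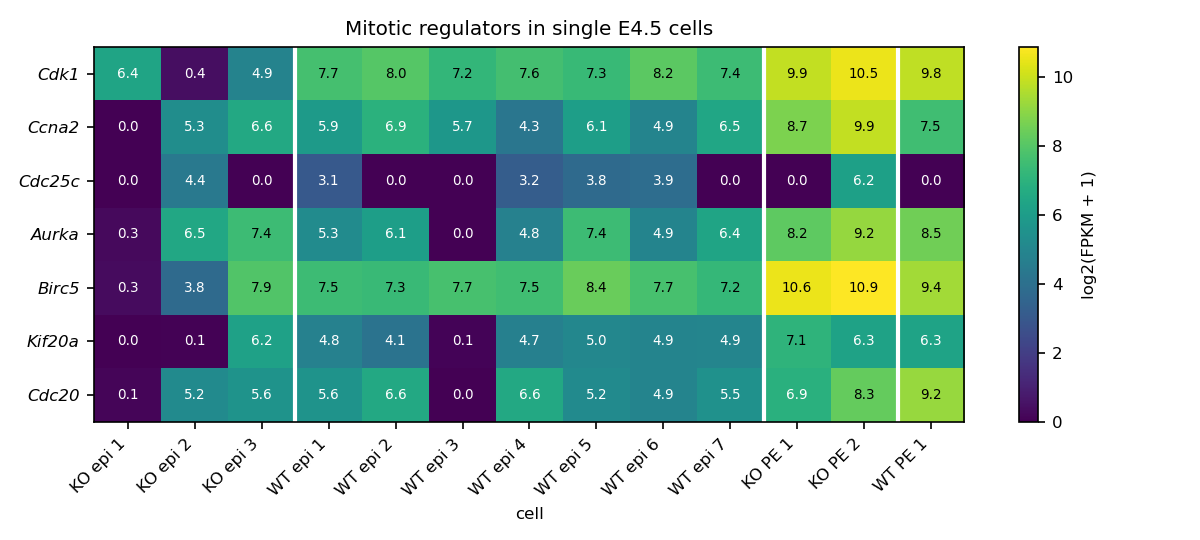
The 7 regulators in each single E4.5 cell as log2(FPKM + 1), printed and coloured from dark (low) to bright (high), with KO left of WT in the epiblast (epi) and in the primitive endoderm (PE). KO epiblast cell 1 is dark in 6 of 7 rows and WT epiblast cell 3 in 4, and the primitive endoderm cells are bright in most rows.

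The sum of the 7 regulators was 81.4, 198.7 and 655.6 FPKM in KO epiblast cells 1, 2 and 3 and 409.3 to 811.5 FPKM in WT epiblast cells. In primitive endoderm it was 3418 and 5342 FPKM in the KO cells and 2785 FPKM in the WT cell. Birc5 was at 1521 and 1874 FPKM in KO primitive endoderm and 663.3 FPKM in WT, Cdk1 at 929.8 and 1484 FPKM in KO and 906.9 FPKM in WT, and Ccna2 at 426.8 and 949.1 FPKM in KO and 184.5 FPKM in WT. Cdc20 went the other way, with 119.4 and 317.0 FPKM in KO and 584.2 FPKM in WT. Aurka (287.6 and 569.4 in KO and 366.7 in WT) and Kif20a (133.5 and 75.5 in KO and 78.9 in WT) had the WT cell within or near their KO range. Beside these values, Cdkn1a had 1026 and 972.2 FPKM in the KO cells and 1.82 FPKM in the WT cell. In epiblast cells Cdkn1a overlapped, with 63.0 to 155.7 FPKM in KO and 0 to 462.1 FPKM in WT. The primitive endoderm cells had 3093, 3279 and 3414 genes at 1 FPKM or more. Primitive endoderm markers summed to 753.5 and 1137 FPKM in the KO cells and 3690 FPKM in the WT cell. Trophectoderm markers summed to 312.7 and 560.8 FPKM in KO and 1716 FPKM in WT. All genes summed to 375431 to 434504 FPKM in these cells and 212520 to 278609 FPKM in epiblast cells. The part of these differences was not tested.

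FPKM are scaled by transcript length, so genes can be set side by side. In KO ICM the mean level ran from Birc5 (460.8) and Cdk1 (337.7) through Cdc20 (46.0), Ccna2 (45.4) and Aurka (30.2) to Kif20a (10.7) and Cdc25c, and in WT ICM from Birc5 (417.0) and Cdk1 (364.0) through Cdc20 (187.5), Aurka (106.1) and Ccna2 (98.0) to Kif20a (49.9) and Cdc25c. Neighbours in this order overlapped in range, except Cdk1 and Cdc20 in KO ICM and Kif20a and Cdc25c in WT ICM. In WT E5.5 epiblast Cdc20 led at 371.4 FPKM, above Birc5 at 258.6 and Cdk1 at 218.8.

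The genes whose log2 FPKM followed the mean of the 7 standardised regulators most closely over the 20 embryo libraries, among 3787 ranked, were Arf1 (Pearson r = 0.95), Eif2d (0.94), Eef1a1 (0.93), Fastk (0.93), Akr1a1 (0.92), Aaas (0.92), Slc35c2 (0.92) and Slc25a39 (0.91). The 7 did not share a single pattern. Birc5 had r = -0.61 with Cdc20, -0.55 with Kif20a, -0.49 with Ccna2, -0.33 with Aurka, -0.21 with Cdc25c and 0.43 with Cdk1. Cdk1 had 0.0047 to 0.12 with Ccna2, Cdc25c, Aurka, Kif20a and Cdc20, which had 0.74 to 0.94 with each other. These 20 points share the 4 groups and the low numbers of detected genes in KO ICM libraries 1, 4 and 6, and the values are a description.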

How the data were processed

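RNA of 33 libraries was analysed; the 4 methylomes had no CpG position within 10 kb of the regulators and were not used here, nor were the H3K4me3 and ATAC libraries. The authors deposited FPKM values, as the name of their table says. Per the submitters' processing notes the tools include STAR 2.7.3 and Trim Galore 0.6.4, on the mm10 build; the counting tool is not stated. FPKM keep no depth, so no counting interval is given. The 4 lines of 2 repeated names were left out, leaving 7182 genes.

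Differences were fitted on log2(FPKM + 1) with limma 3.58.1 in R 4.3.3 (trend, robust empirical Bayes) keeping genes whose mean over the compared libraries reached 1 FPKM, adjusted by Benjamini-Hochberg over all genes and called under 0.05. The pseudocount of 1 understates changes of low genes. The code was tested on simulated data. Single cells were not tested. Named genes are every regulator, the 3 genes of smallest p in the ICM per cell cycle list, and the 8 most similar genes. Regulators and lists were chosen with earlier results of these data known. Alternatives were pseudocounts, filters, scalings, moderation settings, array weights, a replicate block, a shared fit and left-out libraries, and, added after seeing the data, fits that dropped KO ICM libraries 1, 4 and 6, which detected fewest genes, or adjusted for genes detected.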

Additional observations from a re-analysis of the deposited data

Results flagged for a closer look

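Of 21 groups of values checked for a single distant library or cell, 2 stood out, where chance gives about 1 in 20. Aurka in WT ICM had 50.2 FPKM in library 5, with the nearest of the other 6 at 98.5 FPKM. Birc5 in WT E4.5 epiblast had 333.6 FPKM in cell 5, with the nearest of the others at 211.0 FPKM.

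The KO effect on Cdc25c differed between the stages, by 2.62 on the log2 scale at E5.5 relative to E3.5 (SE 0.86, adjusted p = 0.0460 with limma), with KO libraries above WT at E5.5 and mostly below WT at E3.5. The call was narrow: it ended in most fits without 1 library, after either scaling, at a pseudocount of 0.1, with no filter on low values, with the replicate block and without KO ICM libraries 1, 4 and 6. E5.5 KO libraries also held the trophectoderm markers described above, whose part was not tested.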

How the results depend on the processing

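FPKM give no depth, so low values such as those of Cdc25c cannot be given a counting error, and 3 libraries a group limit the E5.5 results. Every called regulator value kept its sign under the settings tried, except 2. Adjusted in the ICM for genes detected per library (the covariate below), Aurka had 0.0078 and Cdc25c 0.21. This covariate largely follows genotype, and the cause was not tested.

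All genes called in the ICM (1540) were 708 after quantile normalization, 1003 after median ratio scaling, 405 without KO libraries 1, 4 and 6, 0 with the covariate (limma; 314 at an unadjusted p under 0.05) and 946 to 1875 without 1 library. Regulators called (5) were 3 without those KO libraries, 0 with the covariate and 4 to 5 without 1 library. At E5.5 the 2032 genes were 702 and the 2 regulators 0 with the 4 embryo groups in 1 fit, and 1205 to 2185 and 0 to 2 without 1 library. For the difference of effects 827 genes were 520 at a pseudocount of 0.1, 1664 with array weights and 458 to 1034 without 1 library. The 1 regulator was 0 at a pseudocount of 0.1, with no filter, after either scaling, with the replicate block and without those 3 KO libraries, 3 with array weights and 0 to 2 without 1 library. In development, regulators called in WT (4) were 1 with the 4 groups in 1 fit and 1 to 4 without 1 library, and in KO (5) 2 after quantile normalization and 2 to 6 without 1 library. In the E4.5 epiblast cells the median log2 ratio of the regulators, KO over WT, was -0.47 from means, -2.78 from medians over cells and -1.59 to 0.11 without 1 cell.

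Same-numbered libraries did not deviate together (correlations of -0.13 to 0.16 in the ICM and -0.02 to 0.12 at E5.5; 1 of 7 and 2 of 3 numbers correlated best with their own). With the replicate block the counts were 1221 in the ICM, 1950 at E5.5, 713 for the difference of effects, 2968 in WT and 2439 in KO development. It ended the calls of Cdc25c for the difference of effects (adjusted p = 0.0502), of Kif20a in WT (0.0871) and of Ccna2 (0.0519) and Birc5 (0.0515) in KO development, where Cdk1 (0.0156) and Aurka (0.0400) passed.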
